A study of Mus musculus with 12 samples.

Results

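A set of inhibitory and SLAM family immune receptors of microglia, with the phosphatase that many of them recruit, was taken from the NanoString nCounter Neuroinflammation panel, as 8 of its 770 genes: *Cd72*, *Cd84*, *Lrrc25*, *Cd33*, *Lair1*, *Pilra*, *Cd300lf* and *Ptpn6*. The 8 genes were chosen by name, with earlier results of these data known. On the nCounter, each RNA molecule is tagged by a probe with a color barcode and counted directly, with no amplification step. RNA was measured in 12 samples of sorted microglia from the CNS of C57B6 mice, and each sample combined 2 mice, 1 male and 1 female. Aged mice were over 80 weeks old, and their microglia were separated by phosphorylation of the kinases ERK1/2 into P-ERK1/2 High (samples 2, 5, 7 and 8) and P-ERK1/2 Low (samples 3, 6, 9 and 12). Adult mice were 12 to 20 weeks old, and their microglia were not separated by P-ERK1/2 (samples 1, 4, 10 and 11), so a comparison with adult cells changes both age and this separation. Sample 11 was marked by the submitters as excluded for quality, so adult values rest on 3 samples unless it is named. In all groups the cells were enriched with CD11b beads, fixed, permeabilized and sorted as CD45 intermediate, Ly6G negative and positive for YFP, a reporter driven by the *Cx3cr1* promoter. The labels describe mice and cells as untreated, whereas the study mentions tamoxifen, given longer ago in aged than in adult mice. Whether P-ERK1/2 High and Low samples came from the same mice is not stated.

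Inhibitory immune receptors carry short tyrosine motifs in their cytoplasmic tails. Once phosphorylated by Src family kinases, these motifs recruit phosphatases such as SHP-1, encoded by *Ptpn6*, which dampen signals from activating receptors that work through adaptors such as TYROBP and the kinase SYK. Receptors of the SLAM family, among them CD84, bind their own kind on neighboring cells and can signal either way, depending on whether adaptors of the SAP family or phosphatases are bound. Microglia express several receptors of both kinds, and their ligands include sialic acids, collagens and lipids.

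Stretches of 250 bases upstream of the RefSeq start (build GRCm38.p6) are shown for the receptors that differed most between the groups, since members that moved in opposite directions can be read side by side. The stretches were searched on both strands for TGANTCA, the motif of AP-1 factors, and for GAGGAAGT, a core of PU.1 sites, and matches are in capitals. No entry was found for *Lrrc25*.
Cd84, chr1:171839447-171839696, plus strand: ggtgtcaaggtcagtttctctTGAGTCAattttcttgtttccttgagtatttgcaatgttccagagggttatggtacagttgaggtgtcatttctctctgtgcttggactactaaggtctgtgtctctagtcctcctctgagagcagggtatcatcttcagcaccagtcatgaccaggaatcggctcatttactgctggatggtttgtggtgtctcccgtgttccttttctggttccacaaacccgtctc
Cd72, chr4:43454627-43454876, minus strand: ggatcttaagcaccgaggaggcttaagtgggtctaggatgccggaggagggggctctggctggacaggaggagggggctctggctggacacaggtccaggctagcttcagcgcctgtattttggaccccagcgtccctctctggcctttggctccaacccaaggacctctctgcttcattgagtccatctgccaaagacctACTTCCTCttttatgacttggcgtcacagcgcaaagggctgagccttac
Cd33, chr7:43533172-43533421, minus strand: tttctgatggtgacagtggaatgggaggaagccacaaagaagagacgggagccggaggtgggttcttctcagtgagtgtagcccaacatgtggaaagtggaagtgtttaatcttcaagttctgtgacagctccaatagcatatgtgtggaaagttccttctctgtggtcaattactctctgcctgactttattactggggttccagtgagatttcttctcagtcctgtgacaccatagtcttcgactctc
The stretch of *Cd84* held the AP-1 letters, which were in 1 of the 7 listed members and in 6.75% of 32851 upstream stretches of this length. The stretch of *Cd72* held the PU.1 letters on the other strand, which were in 1 of 7 members and in 2.44% of all stretches. That of *Cd33* held neither. A match is a description of the letters, and binding was not measured.

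Depth differed between the groups. The P-ERK1/2 High samples held 650965 to 1539936 recovered counts, the P-ERK1/2 Low samples 123798 to 157209, the kept adult samples 137980 to 326575 and sample 11 1464433. Background was set in each sample from 8 negative control probes, as their mean count plus 2 SD. The counts of 589 to 673 genes exceeded it in P-ERK1/2 High, of 410 to 484 genes in P-ERK1/2 Low and of 417 to 560 genes in adult samples. Of 8 microglia markers, all were above background in every P-ERK1/2 High sample, and *P2ry12* and *Gpr34* were above it in no P-ERK1/2 Low sample. Of 5 B cell markers, none was above background in any adult or P-ERK1/2 Low sample, and *Ms4a1* in no P-ERK1/2 High sample. The summed value of 11 T and NK cell markers was 354 to 1196 in P-ERK1/2 High samples. It was 184 to 368 in adult samples and 201 to 288 in P-ERK1/2 Low samples, where 10 and 11 of the markers were above background in no sample. In RNA from sorted populations, fewer cells of a type and less RNA per cell cannot be told apart.

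For these 8 genes, 2 samples stood apart from their labels' groups. Each was placed on a scale where the kept adult mean is 0 and the mean of the other 3 P-ERK1/2 High samples is 1, in log2 values. P-ERK1/2 High sample 7 lay at 0.004 for *Lrrc25*, 0.060 for *Ptpn6*, 0.267 for *Lair1*, 0.389 for *Cd72*, 0.440 for *Cd33* and 0.689 for *Cd84*, nearer to the adult mean for all of these but *Cd84*. The excluded adult sample 11 lay between 0.926 for *Cd72* and 1.525 for *Cd33* over the same 6 genes, short of the P-ERK1/2 High mean of 1 for *Cd72* and beyond it for the other 5. The geometric mean of its positive control probes was 286 counts, against 954 to 1459.7 in the other samples, and 16 genes were listed at 1 in it and in no other sample. For the 6 genes that were measured above background, fold changes are therefore also given without sample 7 or with sample 11.

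**Figure D1:**
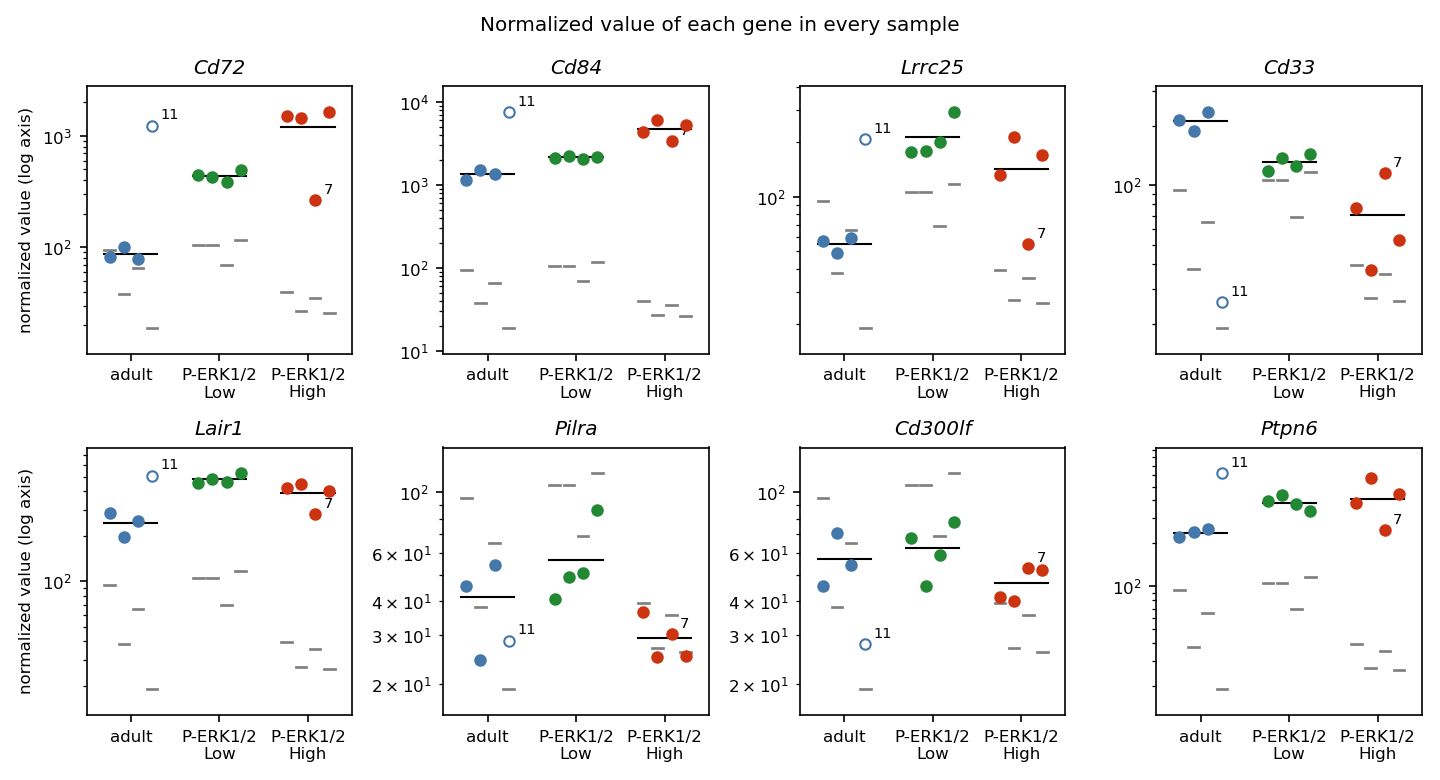
Deposited normalized value (log axis) of the 8 genes in every sample by group. Filled points are kept samples, the open point is the excluded sample 11, black lines are means of the kept samples and gray ticks are the background of each sample. The mean of *Cd84* was lowest in adult samples (1334 ± 172), then P-ERK1/2 Low (2139.9 ± 97.7) and highest in P-ERK1/2 High (4759.6 ± 1153), *Cd33* lay in the opposite order, and the points of *Pilra* lie under the ticks in all kept samples.

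*Cd84*, the SLAM family receptor of the set, was highest in P-ERK1/2 High microglia. Its normalized value was 1150.3, 1492 and 1359 in adult samples 1, 4 and 10. In P-ERK1/2 Low it was 2104, 2258, 2028 and 2170.1 (samples 3, 6, 9 and 12), and in P-ERK1/2 High it was 4329.9, 6043, 3387 and 5278 (samples 2, 5, 7 and 8). No group overlapped with another, and sample 7 was the lowest of its group but still above all P-ERK1/2 Low samples. Sample 11 was at 7564, the highest of all 12.

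A gene was called where limma, fitted on log2(value + 1), gave a p under 0.01 together with a change of more than 1 log2 unit. From P-ERK1/2 Low to High, 37.8% of all 770 genes passed, with 28.2% higher and 9.61% lower. Among the 8 genes, 2 were called, *Cd84* higher and *Cd33* lower, no larger a share than that of the panel. The median log2 fold change of the 8 was -0.37, against 0.26 over all genes. *Cd84* rose by a log2 fold change of 1.12 (SE 0.23, limma adjusted p = 0.00173, n = 4 and 4), which is 0.87 above the median of all genes. Without sample 7 it was 1.27 (SE 0.20, limma adjusted p = 0.000444). Without sample 5 it was 0.99 and not called. The groups did not overlap for 4 of the 8 genes, *Cd84*, *Cd33*, *Lair1* and *Pilra*, and for 49.4% of all genes. *Pilra* was under background in every sample of both groups, so its separation is not one of measured levels.

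Markers of microglia and of other cell types also differed between the aged groups, where 28.2% of all genes were called higher. Of 8 microglia markers, *Tmem119* (2.02), *P2ry12* (1.91), *Sall1* (1.70) and *Gpr34* (1.13) were called higher in P-ERK1/2 High, and *Csf1r* differed by -0.84 (SE 0.21, limma adjusted p = 0.00589), within the fold limit. Each of the 4 called genes was above background in at most 1 P-ERK1/2 Low sample. *Tmem119* (-1.03) and *Olfml3* (-1.56) were called lower in P-ERK1/2 Low than in adult samples, and in P-ERK1/2 High against adult *P2ry12* was called higher and *Olfml3* lower. Of 5 astrocyte markers, *Gja1*, *Kcnj10* and *Sox9* were called higher in P-ERK1/2 High, *Slc1a3* differed by -0.998 (limma adjusted p = 0.0279) and was not called, and the list summed to 427 to 628 in adult samples, 543 to 775 in those of P-ERK1/2 Low and 1377 to 2111 in those of P-ERK1/2 High. Of 6 endothelial markers, *Cldn5*, *Emcn*, *Esam* and *Flt1* were called higher, with sums of 286 to 413, 207 to 312 and 622 to 1257 in the same order. Of 5 neuronal markers, *Rbfox3* and *Syn2* were called higher and *Nefl* and *Tubb3* lower, with sums of 175 to 210.0, 166 to 234 and 241 to 460.4. In P-ERK1/2 Low, 3 of the astrocyte, 5 of the endothelial and 4 of the neuronal markers were above background in no sample, and *Nefl* and *Tubb3* were at or near background in both aged groups. *Cd163* was the single call of 5 border macrophage markers and was higher, and of 6 oligodendrocyte markers limma called 0, with 3 at an unadjusted p under 0.05. Sample 7 had the lowest astrocyte sum of the P-ERK1/2 High samples and the highest endothelial and neuronal sums. The part of these markers, or of the cells they mark, in the values of the 8 genes was not tested.

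Compared with adult microglia, *Cd84* was higher by 1.81 in P-ERK1/2 High (SE 0.27, limma adjusted p = 0.000372, n = 4 and 3). With sample 11 among the adult samples this became 1.18 (SE 0.57, limma adjusted p = 0.277) and was not called. From adult to P-ERK1/2 Low its log2 fold change was 0.69 (SE 0.14, limma adjusted p = 0.0107), within the fold limit, and with sample 11 it was 0.06 (SE 0.55).

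*Cd72*, a lectin-like receptor best known as an inhibitory co-receptor of B cells, had the largest differences from adult microglia among the 8 genes. Its value was 81.7, 101 and 79.1 in adult samples 1, 4 and 10, and 447, 424, 388 and 496 in P-ERK1/2 Low samples 3, 6, 9 and 12. In P-ERK1/2 High it was 1489, 1444 and 1636 in samples 2, 5 and 8 and 265 in sample 7, which lay under every P-ERK1/2 Low sample. Sample 11 was at 1230.2. Adult values were near the limit of detection, with 2 of 3 samples above background, and all P-ERK1/2 Low and High samples were above it.

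Of all genes, 10.8% passed between P-ERK1/2 Low and adult microglia, with 8.05% higher and 2.73% lower in P-ERK1/2 Low. Of the 8 genes 2 were called, *Cd72* and *Lrrc25*, both higher. The log2 fold change of *Cd72* was 2.32 (SE 0.16, limma adjusted p = 0.000175, n = 4 and 3), the rank of 6 among 770 by size of increase. With sample 11 added it was 1.37 (SE 0.81, limma adjusted p = 0.447), and 0 of the 8 genes and 4.42% of all genes were called. At an unadjusted p under 0.05, 2 of the 8 still passed, *Lrrc25* and *Lair1*.

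For P-ERK1/2 High against adult microglia, 36.9% of all genes passed, with 29.2% higher and 7.66% lower. Of the 8, *Cd72* and *Cd84* were called higher and *Cd33* lower, and these 3 were also the genes without overlap, as were 50.3% of all genes. *Cd72* rose by 3.49 (SE 0.56, limma adjusted p = 0.000598, n = 4 and 3), the rank of 5 among 770. Without sample 7 the fold change was 4.11 (SE 0.21), and 4 of the 8 and 39.4% of all genes were called. With sample 11 it was 2.53 (SE 0.93, limma adjusted p = 0.17), and 0 of the 8 and 6.36% of all genes were called. *Cd72* then passed at an unadjusted limma p of 0.0223. With sample 11 and without sample 7 it was 3.16 (SE 0.92, limma adjusted p = 0.224), the single call among the 8 where 3.38% of all genes were called.

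From P-ERK1/2 Low to High the log2 fold change of *Cd72* was 1.17 (SE 0.49, limma adjusted p = 0.0663) and was not called, and the groups overlapped through sample 7. Without that sample the fold change was 1.80 (SE 0.19, limma adjusted p = 4.35e-05), and 3 of the 8 genes and 37.5% of all genes were called. The 5 B cell markers summed to 119 to 171 in P-ERK1/2 Low, with none above background, and to 176 to 417 in P-ERK1/2 High. Sample 7, the lowest P-ERK1/2 High sample for *Cd72*, had the highest of these sums. *Blk* was called higher in P-ERK1/2 High than in Low (1.45, SE 0.36, limma adjusted p = 0.0051) and adult samples (1.57, SE 0.38, limma adjusted p = 0.00682), and was above background in all 4 P-ERK1/2 High samples and in no other kept sample. *Tnfrsf13c* was called higher in P-ERK1/2 High than in adult samples with 1 of 4 samples above background. All samples had passed the CD11b beads and the gate on YFP and intermediate CD45. The part of B cells in the values of *Cd72* was not tested.

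*Lrrc25* encodes a leucine-rich repeat membrane protein of myeloid cells. Its values were 56.7, 48.9 and 59.3 in adult samples 1, 4 and 10, of which 1 was above background. They were 176, 179, 198 and 291 in P-ERK1/2 Low samples 3, 6, 9 and 12. In P-ERK1/2 High they were 131, 211 and 169.8 in samples 2, 5 and 8, and 55.0 in sample 7, within the adult range. Sample 11 was at 207.

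*Lrrc25* rose by 1.89 from adult to P-ERK1/2 Low (SE 0.21, limma adjusted p = 0.000907), with no overlap. The size of this change rests on adult values of which 2 of 3 were not above background. It was 2.35 (SE 0.24) with the mean of the negative controls subtracted and 2.60 (SE 0.28) with subtraction before the housekeeping step. With sample 11 this was 1.42 (SE 0.46, limma adjusted p = 0.189). For P-ERK1/2 High minus adult the fold change was 1.20 (SE 0.41, limma adjusted p = 0.0325) and was not called, whereas without sample 7 it was 1.60 (SE 0.24, limma adjusted p = 0.000752) and was called. With sample 11 it was 0.72 (SE 0.56, limma adjusted p = 0.448), and with both changes 1.12 (SE 0.53, limma adjusted p = 0.286), and neither was called. The aged groups overlapped, with a P-ERK1/2 High minus Low fold change of -0.70 (SE 0.38, limma adjusted p = 0.136), or -0.30 without sample 7. The means were lowest in adult samples, then in P-ERK1/2 High and then in Low. The difference between the aged groups depended on the scaling, and *Lrrc25* was called lower in P-ERK1/2 High with an equal total (-1.72, SE 0.29, limma adjusted p = 0.000675) and higher with positive control scaling (1.28, SE 0.44, limma adjusted p = 0.00586). Positive control scaling leaves the difference in depth between the groups in the values, and the median of all genes was 2.15 under it. It was -0.95 with median-of-ratios factors (SE 0.35, limma adjusted p = 0.0369), within the fold limit.

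*Cd33*, a Siglec that binds sialic acids on neighboring cells, ran opposite to *Cd84* and *Cd72*. Its value was 213, 189 and 235 in adult samples 1, 4 and 10. It was 119, 137, 126 and 144 in P-ERK1/2 Low samples 3, 6, 9 and 12, and 76.7, 37.2, 116 and 53.2 in P-ERK1/2 High samples 2, 5, 7 and 8. No group overlapped with another, although sample 7 came close to the lowest P-ERK1/2 Low sample (116 against 119). Sample 11 was at 25.6, the lowest of all 12.

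*Cd33* fell by 1.69 on the log2 scale from adult to P-ERK1/2 High (SE 0.36, limma adjusted p = 0.00339, n = 4 and 3), the rank of 762 among 770 by increase. Without sample 7 it fell by 1.97 (SE 0.29), and with sample 11 the fold change was -0.94 (SE 0.69, limma adjusted p = 0.438) and was not called. From P-ERK1/2 Low to High the fold change was -1.002 (SE 0.31, limma adjusted p = 0.0176), just past the fold limit. Of the 8 fits that leave out 1 sample, *Cd33* was called in 1, that without sample 7 (-1.28, SE 0.25, limma adjusted p = 0.00192). It was not called when any of the other 7 was left out. For P-ERK1/2 Low minus adult the fold change was -0.69 (SE 0.15, limma adjusted p = 0.0109), and 0.06 with sample 11.

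The depth behind *Cd33* was low. In P-ERK1/2 Low its recovered counts were 35, 39, 47 and 35 against backgrounds of 31.3, 30.3, 25.9 and 28.5 counts, and in P-ERK1/2 High they were 63, 52, 103 and 42. With the mean of the negative controls subtracted, the P-ERK1/2 High minus Low fold change was -0.92 (SE 0.40) and not called, where 42.3% of all genes were. Where the subtraction came before the housekeeping step it was -1.29 (SE 0.40) and called, as were 45.2% of all genes. The fold change of P-ERK1/2 High minus adult was, with subtraction on the deposited scale, -1.91 (SE 0.46) and called, as were 34.3% of all genes.

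**Figure D2:**
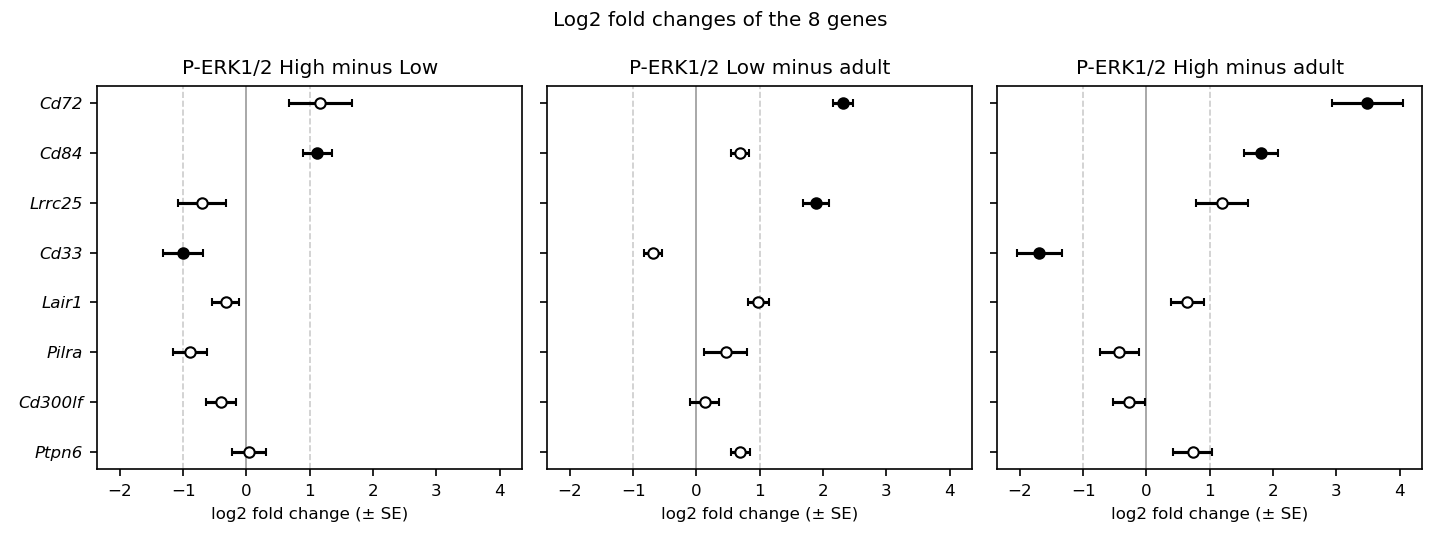
Log2 fold change (points, with bars of 1 SE) of the 8 genes in the 3 comparisons, with filled points for called genes and dashed lines at a log2 fold change of 1 in either direction. *Cd72* lies farthest to the right in both comparisons with adult microglia (2.32 and 3.49), and *Cd33* lies left of 0 in all 3. *Pilra* and *Cd300lf* were at or near background, so their points are not to be read as measured changes.

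*Lair1*, an inhibitory collagen receptor, was 286, 198 and 254 in adult samples 1, 4 and 10. It was 454, 480.3, 460.1 and 525 in P-ERK1/2 Low samples 3, 6, 9 and 12, and 421, 443, 282 and 402 in P-ERK1/2 High samples 2, 5, 7 and 8. Every P-ERK1/2 Low sample was above every kept sample of the other groups, while sample 7 fell within the adult range. Sample 11 was at 507.

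The P-ERK1/2 Low minus adult fold change of *Lair1* was 0.97 (SE 0.16, limma adjusted p = 0.0047), short of the fold limit. It was called without P-ERK1/2 Low sample 3, without adult sample 1 and without adult sample 10, at up to 1.09. P-ERK1/2 High differed from Low by -0.33 (SE 0.22, limma adjusted p = 0.217) and from adult by 0.65 (SE 0.26, limma adjusted p = 0.0643). Without sample 7 these were -0.18 and 0.79 (SE 0.22, limma adjusted p = 0.0169). With sample 11 the changes from adult were 0.71 in P-ERK1/2 Low (SE 0.31, limma adjusted p = 0.338) and 0.38 in P-ERK1/2 High.

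*Pilra*, an inhibitory receptor of the paired immunoglobulin-like type, was above background in 0 of 11 kept samples. Its values of 24.5 to 54.4 in adult samples, 40.7 to 86.2 in those of P-ERK1/2 Low and 25.0 to 36.5 in those of P-ERK1/2 High lay under the background of each sample, so no fold is read from them. *Cd300lf*, an inhibitory receptor for membrane lipids, was above background in all 4 P-ERK1/2 High samples (40.0 to 52.8), in 1 of 3 adult samples (45.4 to 71.0) and in 0 of 4 P-ERK1/2 Low samples (45.6 to 77.9). Its values were lower in the group where it was detected. On the deposited scale the background was at 69.2 to 117 in the shallower P-ERK1/2 Low samples and at 26.1 to 39.5 in P-ERK1/2 High. At this depth a difference in *Pilra* or *Cd300lf* was not detectable.

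*Ptpn6*, which encodes the phosphatase SHP-1, was 222, 239 and 252 in adult samples 1, 4 and 10. It was 396, 438, 375 and 336 in P-ERK1/2 Low samples 3, 6, 9 and 12. In P-ERK1/2 High it was 383, 578 and 441 in samples 2, 5 and 8 and 247 in sample 7, within the adult range, while sample 11 was at 618. The P-ERK1/2 Low and adult samples did not overlap, with a fold change of 0.69 (SE 0.14, limma adjusted p = 0.0107) within the fold limit. P-ERK1/2 High minus Low was 0.04 (SE 0.27, limma adjusted p = 0.921), and P-ERK1/2 High minus adult was 0.73 (SE 0.30, limma adjusted p = 0.0674), or 0.95 (SE 0.23, limma adjusted p = 0.00851) without sample 7. With sample 11 the changes from adult were 0.35 (SE 0.35) and 0.38 (SE 0.42) in P-ERK1/2 Low and High.

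More of the genes separated P-ERK1/2 Low from adult microglia than passed the fold limit. At a limma adjusted p under 0.05 and any fold, 6 of the 8 passed, as did 26.1% of all genes. These were *Cd72*, *Lrrc25*, *Lair1*, *Cd84* and *Ptpn6*, higher in P-ERK1/2 Low, and *Cd33*, lower. The groups did not overlap for the same 6 genes, and for 36.5% of all genes. The median of the 8 was 0.69, against 0.10 over all genes. This count was 3 with the spread shared by the 3 groups, where *Cd84*, *Ptpn6* and *Cd33* were lost (limma adjusted p of 0.0652, 0.0941 and 0.153) and 10% of all genes passed. It was 3 with an equal total (26.9% of all genes), 3 with positive control scaling (37.9%) and 4 with quantile normalization (25.2%). With sample 11 added, 0 of the 8 and 0.909% of all genes passed by limma adjusted p, and 2 of the 8 had an unadjusted p under 0.05.

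**Figure D3:**
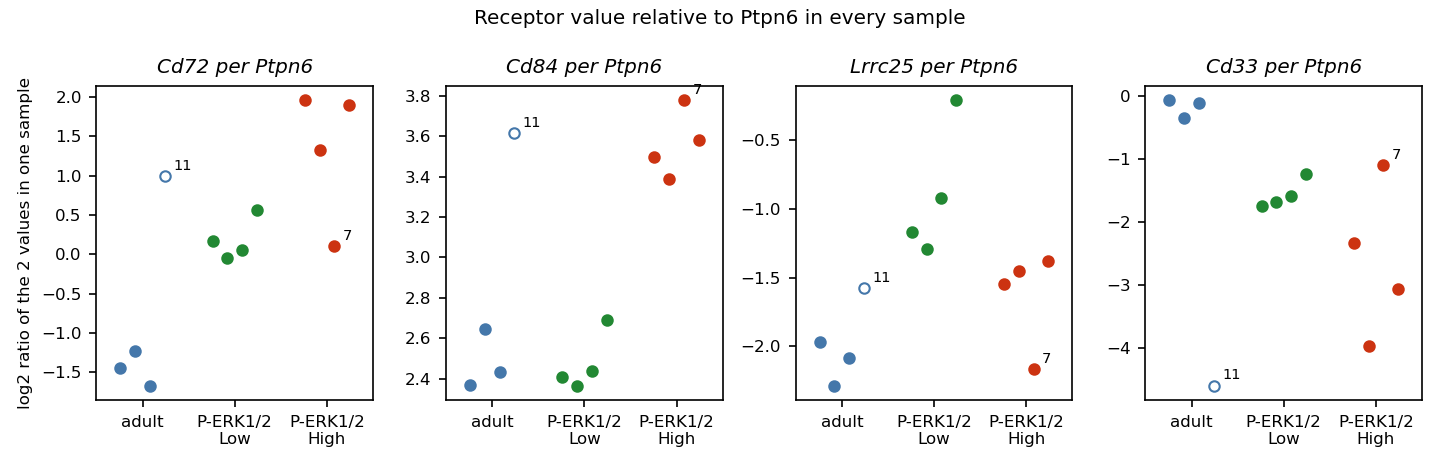
Log2 ratio of 4 receptors to *Ptpn6* within each sample, which no scaling by 1 factor per sample can change. Filled points are kept samples and the open point is the excluded sample 11. *Cd84* per *Ptpn6* lay between 2.37 and 2.69 in P-ERK1/2 Low samples and between 3.39 and 3.78 in P-ERK1/2 High, and sample 7 was at the top of its group.

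Ratios within a sample were taken after the values had been seen and are given as a description, since 1 factor per sample cancels in them. *Cd84* per *Ptpn6* was 2.37 to 2.64 on the log2 scale in adult samples, 2.37 to 2.69 in those of P-ERK1/2 Low and 3.39 to 3.78 in those of P-ERK1/2 High. Here sample 7 was at 3.78, the highest of its group, and sample 11 at 3.61, within the P-ERK1/2 High range. *Cd72* per *Ptpn6* was -1.67 to -1.24 in adult samples, -0.05 to 0.56 in those of P-ERK1/2 Low and 0.10 to 1.96 in those of P-ERK1/2 High.

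*Lrrc25* per *Ptpn6* was -2.29 to -1.97 in adult samples, -1.29 to -0.21 in those of P-ERK1/2 Low and -2.17 to -1.38 in those of P-ERK1/2 High, so that the P-ERK1/2 Low samples were above all others. *Cd84* per *Cd33* was 2.43 to 2.98 in adult samples, 3.92 to 4.15 in those of P-ERK1/2 Low and 4.87 to 7.35 in those of P-ERK1/2 High, with sample 11 at 8.21. In this ratio the 3 groups of kept samples did not overlap. *Cd33* per *Ptpn6* was lower in both aged groups than in adult samples (-0.34 to -0.06), but P-ERK1/2 High (-3.96 to -1.09) overlapped P-ERK1/2 Low (-1.74 to -1.23) through sample 7. *Lair1* per *Ptpn6* overlapped between all 3 groups.

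The size of the P-ERK1/2 High minus Low fold changes depended on how the samples were scaled. The deposited scaling rests on 13 housekeeping genes, of which *Supt7l* had a mean pairwise SD of 1.82 log2 units against 0.58 to 0.96 for the others. Scaling by the 6 most stable of them moved the median of all genes to 0.80, whereas an equal total count moved it to -0.76 and the positive control probes alone to 2.15. The last of these divides recovered counts by the control probes, so the difference in depth between the groups stays in the values. *Cd72* (0.14 to 3.15) and *Cd84* (0.09 to 3.11) stayed above 0 under all 6 scalings and were called in 2 and 3 of them. *Cd33* ranged from -2.01 to 0.96, and was lower in 5 of 6 and called in 4. With the 6 housekeeping genes *Cd33* was at -0.46 (SE 0.31, limma adjusted p = 0.232) and was not called. Of all genes, 41.3% were called with the 6 housekeeping genes, 38.7% with median-of-ratios factors, 48.2% with an equal total, 37.4% with quantile normalization and 85.6% with the positive controls. Where the background was subtracted before the housekeeping step, *Cd84* was at 0.78 and was not called, while 45.2% of all genes were.

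**Figure D4:**
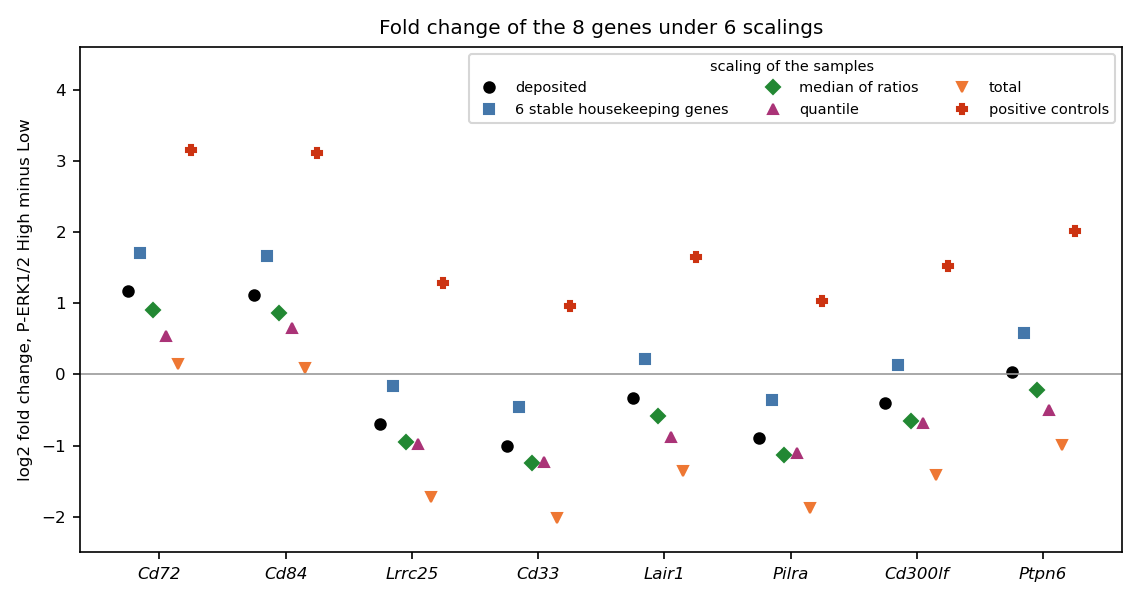
Log2 fold change between P-ERK1/2 High and Low of the 8 genes under 6 scalings of the samples (symbols). All but quantile normalization move every gene of the panel by nearly the same amount, so the symbols shift together, and *Cd72* and *Cd84* stay above 0 under each.

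The comparisons with adult microglia were read under the same 6 scalings. *Cd72* (1.49 to 2.33) and *Lrrc25* (1.07 to 1.90) were called between P-ERK1/2 Low and adult under all 6 and in all 7 fits that leave out 1 sample. Of all genes, 11.3%, 10.1%, 10.8%, 11.3% and 29.4% were called under the alternatives in the order above, and 14.8% and 18.8% with the background subtracted after and before the housekeeping step. For P-ERK1/2 High against adult, *Cd72* (2.08 to 4.64) was called under all 6, *Cd33* (-3.09 to -0.53) under 5 and *Cd84* (0.39 to 2.98) under 4. There 45.2%, 36.1%, 52.2%, 36.5% and 54.7% of all genes were called in the same order, and 38.1% with subtraction before the housekeeping step.

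Related receptors on the panel were read as lists of general knowledge. Of 8 other inhibitory receptors, 3 were called between P-ERK1/2 High and Low, *Kir3dl2* higher and *Fcgr2b* and *Lilrb4a* lower, and 5 were not. The median of the list was -0.22. *Lilrb4a*, an inhibitory receptor of myeloid cells, was 3785 ± 570 (SD, n = 3) in adult, 6739 ± 770 (SD, n = 4) in P-ERK1/2 Low and 2316 ± 1076 (SD, n = 4) in P-ERK1/2 High. It fell by 1.66 between P-ERK1/2 Low and High (SE 0.33, limma adjusted p = 0.00133). *Fcgr2b*, the inhibitory receptor for IgG, was 448 ± 137, 913 ± 125 and 384 ± 197 in the same order. It rose by 1.06 from adult to P-ERK1/2 Low (SE 0.22, limma adjusted p = 0.0107) and fell by 1.39 from there to P-ERK1/2 High (SE 0.34, limma adjusted p = 0.0052).

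*Kir3dl2*, a receptor known from NK cells, was above background in all P-ERK1/2 High samples (236 ± 159) and in no P-ERK1/2 Low or adult sample. In P-ERK1/2 Low against adult, *Fcgr2b* and *Lst1* were called higher, *Lst1* without a sample above background in either group, and 6 of the list were not called, beside 10.8% of all genes that were. In P-ERK1/2 High against adult, *Kir3dl2* was called higher and *Lag3* lower, 2 of 8 beside 36.9% of all genes, and *Lag3* was above background in no P-ERK1/2 High sample.

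Of 5 other genes of the SLAM family and its adaptor, 1 was called between P-ERK1/2 High and Low. This was *Sh2d1a*, which encodes the adaptor SAP of T and NK cells, at 64.0 ± 29.2 in P-ERK1/2 High and above background in no P-ERK1/2 Low or adult sample. That mean is itself under the P-ERK1/2 Low backgrounds of 69.2 to 117. *Slamf9* rose by 1.47 from adult (80.3 ± 14.2) to P-ERK1/2 Low (222 ± 8.30; SE 0.15, limma adjusted p = 0.000726), and was 136 ± 48.9 in P-ERK1/2 High. *Cd244*, a SLAM receptor of NK and myeloid cells, was 54.3 ± 6.49 in adult and 118 ± 30.3 in P-ERK1/2 High, a rise of 1.08 (SE 0.27, limma adjusted p = 0.00788), with 1 of 3 adult samples above background. Among T and NK cell markers, *Cd3e* and *Cd3g* were called higher in P-ERK1/2 High than Low, and 9 of 11 were not, beside 28.2% of all genes called higher. Of the 11, 7 had an unadjusted p under 0.05, a limit for which no share of all genes is given. The median log2 fold change of the list was 0.82 against 0.26 over all genes. All samples had passed the CD11b beads and the gate on YFP and intermediate CD45. The part of T and NK cells in the values of *Kir3dl2*, *Sh2d1a* and *Cd244* was not tested.

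Of 10 activating receptors and their adaptors, 4 were called between P-ERK1/2 High and Low. *Clec7a*, a receptor for fungal glucans, rose by 1.21 (SE 0.33, limma adjusted p = 0.00909), from 1547 ± 171 in P-ERK1/2 Low to 3908 ± 1891 in P-ERK1/2 High. *Trem3* was called higher with no P-ERK1/2 Low sample above background. *Tyrobp*, the adaptor that several activating receptors share, fell by 1.05 (SE 0.23, limma adjusted p = 0.00286), from 8878 ± 1438 to 4331 ± 851. *Fcgr1*, the high-affinity receptor for IgG, fell by 1.09 (SE 0.20, limma adjusted p = 0.000954). Against adult microglia, *Fcgr3* rose by 1.37 in P-ERK1/2 Low (SE 0.18, limma adjusted p = 0.00195), the single call of the list of 10 beside 10.8% of all genes. *Clec7a*, *Fcgr3* and *Trem3* were called higher in P-ERK1/2 High, 3 of 10 beside 29.2%.

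Of 10 signaling genes downstream of these receptors, 3 were called between P-ERK1/2 High and Low. *Ptprc*, which encodes the phosphatase CD45 that was also used to gate the cells, rose by 1.53 (SE 0.25, limma adjusted p = 0.00041), from 643 ± 48.2 to 1930.0 ± 659. *Lyn*, a Src family kinase that phosphorylates inhibitory motifs, fell by 1.08 (SE 0.32, limma adjusted p = 0.0134). *Vav1*, a signaling protein of blood cells, fell by 1.25 (SE 0.31, limma adjusted p = 0.00473). *Syk* differed by -0.80 (SE 0.21, limma adjusted p = 0.00677), within the fold limit. From adult to P-ERK1/2 Low, limma called 0 of the 10 and 10.8% of all genes, and 2, *Blnk* and *Csk*, passed an unadjusted p under 0.05. From adult to P-ERK1/2 High, *Ptprc* was called higher (1.88, SE 0.30, limma adjusted p = 0.000546) and *Vav1* lower (-1.33, SE 0.35, limma adjusted p = 0.00994), beside 36.9% of all genes. The shares called in these lists between P-ERK1/2 High and Low, 3 of 8, 1 of 5, 4 of 10 and 3 of 10, stand beside 37.8% of all genes.

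The panel genes most like each member over the 11 kept samples were found by Pearson's r of log2(value + 1). The samples share their group, depth and scaling factor, so these values describe likeness only. For *Cd84* they were *Hat1* (r = 0.991) and *Nlrp3* (0.990), and for *Cd72* they were *Ifitm3* (0.987) and *Lig1* (0.980). *Lrrc25* was most like *Crip1* (0.986) and *Pcna* (0.971), and *Lair1* also *Crip1* (0.934) and then the SLAM family gene *Ly9* (0.927). *Cd33* was most like *Cables1* (0.962) and *Apoe* (0.955), and *Ptpn6* like *Parp1* (0.973) and *Fcgr3* (0.948). *Pilra* and *Cd300lf*, at or near background, were left out.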

How the data were processed

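The authors counted RNA on the NanoString nCounter Neuroinflammation panel and normalized the counts in nSolver (version not given in the sources used here). The deposited signal values equal each count times 1 factor per sample, which brings the geometric mean of 13 housekeeping genes to 173 in every sample, with no background subtracted. The deposited table held 784 rows, namely 770 genes, 8 negative and 6 positive control probes, and 0 columns were left unmapped. The factors were read from the steps of the values, and 100.0% of gene values above 1 then gave whole counts to within 0.1, which supplied depth and background. Samples were grouped by their titles. Each pair of groups was compared with limma 3.58.1 (R 4.3.3) on log2(value + 1), two-sided, with no filter and Benjamini-Hochberg adjustment over all 770 genes. Genes were called, after the study's methods, at p under 0.01 with a change of more than 1 log2 unit. Counts at an unadjusted p under 0.05 carry no fold limit, and no share of all genes is given for them. The test was tried on simulated data, and no result of that trial is given here.

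The 8 members and all lists were chosen with earlier results of these data known. Members were named whatever their values, other genes as members of a list or as the 2 most alike by Pearson's r. Each sample held 2 mice, and the labels do not say whether mice differ between samples, so p-values measure the spread between samples. Alternatives covered other pseudocounts (0.1 and 20), a filter that keeps genes with a mean of 50 or more, scalings, background subtraction, a shared spread, an adjusted p under 0.05, and single samples left out or added. The sample type label reads aged for all 12 samples, and ages were taken from the titles.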

Additional observations from a re-analysis of the deposited data

Results flagged for a closer look

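In 24 sets of 4 samples (8 genes by 3 groups, with sample 11 counted among the adult samples), 6 held a sample whose gap to its nearest neighbor took a larger share of the group's range than Dixon's 95% critical value for 4 samples. For a single group, chance gives this in about 1 in 20. The 24 sets share the same 12 samples, with sample 11 added back, so the number flagged is not compared with that rate. In 5 of the 6 it was adult sample 11, which the submitters had excluded. It was highest for *Cd72* (1230.2, with a gap of 0.910 of the range), *Cd84* (7564, 0.862), *Lrrc25* (207, 0.868) and *Ptpn6* (618, 0.878), and lowest for *Cd33* (25.6, 0.900). The other was P-ERK1/2 High sample 7, lowest for *Cd72* (265, 0.931).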

How the results depend on the processing

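Of the alternatives for the fold change of a single gene, 396 kept direction and call, 28 gained a call, 25 lost it and 37 reversed in sign. Between P-ERK1/2 High and Low the count of called genes, 2, became 1 with a pseudocount of 20, 1 with the background subtracted, 1 with the background subtracted before the housekeeping step, 5 with an equal total and 6 with positive control scaling, and 0 to 3 with single samples left out. The 5 were all lower and included *Pilra* and *Cd300lf*, and the 6 were all higher and included *Cd300lf*. With median-of-ratios scaling and with quantile normalization the 2 called were *Cd33* and *Pilra*, without *Cd84*. The count was 0 by limma without P-ERK1/2 High sample 5, where 4 genes passed an unadjusted p under 0.05, and 1 without sample 2, 6, 8, 9 or 12. Of all 770 genes, 243 were called with a pseudocount of 20, 235 without sample 5 and up to 310 with another sample left out. The main fit called 291. Between P-ERK1/2 Low and adult the count of 2 became 0 by limma with sample 11 added (2 at an unadjusted p under 0.05), and 2 to 3 with single samples left out. Between P-ERK1/2 High and adult the count of 3 became 6 with the 6 most stable housekeeping genes, 5 with positive control scaling, 0 by limma with sample 11 added (1 at an unadjusted p under 0.05) and 1 with sample 11 added and sample 7 left out, and 3 to 4 with single samples left out. The count for P-ERK1/2 High and adult was also 2 with quantile normalization and 4 with an equal total, a shared spread or an adjusted p under 0.05, and that for P-ERK1/2 Low and adult 3 with an equal total, positive control scaling or subtraction before the housekeeping step. With single samples left out, 75 to 95 of all genes were called between P-ERK1/2 Low and adult, against 83 in the main fit. Between P-ERK1/2 High and adult these were 225 to 303 against 284, and 292 with a shared spread. Positive control scaling, subtraction before the housekeeping step, and the joint change of samples 7 and 11 were chosen after seeing the data. With subtraction before the housekeeping step, *Cd84* was at 0.78 between P-ERK1/2 High and Low and was not called.

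Values of *Pilra* and *Cd300lf* are those of probes at or near background and are not measured folds. Reversals between P-ERK1/2 High and Low were *Cd300lf* (0.13) and *Lair1* (0.22) with the 6 housekeeping genes, and *Ptpn6* with median-of-ratios scaling (-0.22), an equal total (-0.99), quantile normalization (-0.50) and subtraction before the housekeeping step (-0.25), where *Cd300lf* was at 0.07. With the background subtracted, *Cd300lf* (0.42) and *Pilra* (0.22) reversed, and with positive control scaling *Cd300lf* (1.53), *Cd33* (0.96), *Lair1* (1.65), *Lrrc25* (1.28) and *Pilra* (1.03), where the median of all genes was 2.15. *Ptpn6* ranged from -0.15 to 0.26 with single samples left out, being at -0.15 without sample 5, -0.02 without sample 8 and -0.03 without sample 12. Between P-ERK1/2 Low and adult, *Cd300lf* was at -0.25 with an equal total, -0.38 with the background subtracted, -0.66 with positive control scaling, -0.15 with subtraction before the housekeeping step, and -0.02 to 0.30 with single samples left out. *Pilra* was at -0.47 with the background subtracted and, with positive control scaling, at -0.32, where *Cd84* was at -0.13 and *Ptpn6* at -0.12. *Cd33* was at 0.06 with sample 11. Between P-ERK1/2 High and adult, *Cd300lf* (0.27) and *Pilra* (0.11) reversed with the 6 housekeeping genes, *Lair1* (-0.77), *Lrrc25* (-0.20) and *Ptpn6* (-0.68) with an equal total, and *Lair1* (-0.08) and *Ptpn6* (-0.0003) with quantile normalization. *Cd300lf* was at 0.04 with the background subtracted and 0.87 with positive control scaling, where *Pilra* was at 0.71. Where a call or sign changed, the cause was not tested.

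No paired analysis was possible because each sample number occurs once in the series. The count-model test was not run. A filter on a mean of at least 50 left *Pilra* untested in both comparisons with P-ERK1/2 High. Depth limits *Pilra*, *Cd300lf*, *Cd33* in P-ERK1/2 Low, and *Cd72* and *Lrrc25* in adult samples, where counts were at or near background.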
